A study of Mus musculus with 12 samples.

Results

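The genes of the pre-B cell receptor and its first signalling steps were followed across 12 libraries of sorted mouse fetal liver progenitors. The set was chosen by name and holds 9 of the 23420 genes in the deposited table: Igll1, Vpreb1, Vpreb2, Vpreb3, Cd79a, Cd79b, Blnk, Blk and Syk. All 9 are in the table, and 7 of them reached the level required for testing, 10 or more in 3 or more libraries, as did 4542 genes of the whole table. Vpreb2 and Blk did not reach it. Values, called signal units here, are read as molecule counts that the authors scaled for each library, and they summed to 155374 to 284648 a library.

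The libraries came from c-Kit+ cells of mouse fetal liver from which cells carrying mature lineage antigens had been removed. Cells were sorted on PIR, the paired immunoglobulin-like receptors of the Lilrb3 and Pira genes, into tubes of 100 cells, with spike-in RNA added to each tube. The 4 groups of 3 libraries were PIR+ cells of KO embryos, PIR+ cells of wild-type embryos, PIR- cells of KO embryos and PIR- cells of wild-type embryos. The labels give no strain, no promoter or allele and no target gene for the KO, and leave unsaid whether the libraries of 1 group came from separate embryos. The p-values therefore measure the spread between these samples, which may be technical. Groups follow the sample titles. In 6 of the 12 libraries another label, the markers field, carries the other PIR sign, and the embryonic day of the source name, E12.5 or E14.5 in 6 libraries each, goes with that field and not with the title. The sort genes went with the titles: Lilrb3, Pira1 and Pira2 were listed at 0 in all 6 PIR- libraries, while Pira2 averaged 15.9 in PIR+ KO and 32.3 in PIR+ wild-type libraries. Kit was present in every group, with means of 46.1 in PIR+ KO, 43.0 in PIR+ wild type, 25.0 in PIR- KO and 21.1 in PIR- wild type.

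A pre-B cell that has joined an immunoglobulin heavy chain gene but no light chain gene places that heavy chain on its surface with a surrogate light chain, made of the Igll1 product and a VpreB protein. The receptor signals through the Cd79a and Cd79b chains, whose cytoplasmic tails are phosphorylated by Src-family kinases such as Blk and then bind the kinase Syk, and Syk phosphorylates the adaptor Blnk. Igll1 and Vpreb1 messages mark early B-lineage cells, and fetal liver is the main site of B lymphopoiesis before birth.

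The genes lie on 7 chromosomes of GRCm38, in the GENCODE M21 annotation. Igll1 (chromosome 16, 16860671 to 16863985) and Vpreb1 (chromosome 16, 16868403 to 16870843) are neighbours on the minus strand with 4417 bases between them. Vpreb2 (chromosome 16, 17980428 to 17981273, plus strand) lies 1109584 bases from Vpreb1. Vpreb3 is at 75943057 to 75949657 of chromosome 10, Cd79a at 24897381 to 24902197 of chromosome 7, Cd79b at 106311341 to 106314762 of chromosome 11, Blnk at 40928927 to 40994535 of chromosome 19, Blk at 63372836 to 63417037 of chromosome 14 and Syk at 52583173 to 52648792 of chromosome 13. Vpreb1 overlaps Top3b and Vpreb3 overlaps the pseudogene Gm16221, each on the other strand. Whether the authors counted by strand is not given in the sources used here, so reads from the shared stretches cannot be assigned to 1 gene with certainty.

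Vpreb1 and Vpreb2 are near-identical copies, which bears on both of their values. Their transcripts matched at 739 of 759 aligned bases (97.4%), and their coding sequences of 429 bases each differed at 9. The last 120 coding bases, stop codon included, are shown because they hold 5 of these 9 differences, in capitals.
Vpreb1: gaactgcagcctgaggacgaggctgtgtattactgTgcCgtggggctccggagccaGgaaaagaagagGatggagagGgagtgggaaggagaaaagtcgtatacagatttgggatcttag
Vpreb2: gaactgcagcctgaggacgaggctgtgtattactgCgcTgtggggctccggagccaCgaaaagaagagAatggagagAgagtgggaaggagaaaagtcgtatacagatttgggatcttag
Reads outside the differing bases fit both genes, so the split of molecules between Vpreb1 and Vpreb2 is uncertain.

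Promoter windows of the genes were matched in RefSeq (GRCm38.p6) for 7 of the 9, all but Cd79b and Blk, each from 250 bases before to 50 after the start. Those of Igll1, Vpreb1, Vpreb3, Cd79a and Blnk, which moved together across the libraries, are shown with the upstream one of the 2 windows of Syk, which did not follow them. Capitals mark matches on either strand to 5 motifs chosen after the sequences were seen: CCCNNGGG, the core letters bound by EBF1, the B-lineage factor; ATTTGCAT, the octamer bound by Oct factors; the E-boxes CAGGTG and CAGCTG, letters bound by E2A; and TGTGGT, bound by Runx factors. No matches overlapped.
Igll1 promoter, chr16:16863936-16864235, minus strand: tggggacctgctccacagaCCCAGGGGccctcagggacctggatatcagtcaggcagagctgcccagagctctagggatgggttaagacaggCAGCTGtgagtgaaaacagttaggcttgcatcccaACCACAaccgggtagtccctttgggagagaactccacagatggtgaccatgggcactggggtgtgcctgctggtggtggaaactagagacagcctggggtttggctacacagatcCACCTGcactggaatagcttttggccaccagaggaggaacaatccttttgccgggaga
Vpreb1 promoter, chr16:16869206-16869505, minus strand: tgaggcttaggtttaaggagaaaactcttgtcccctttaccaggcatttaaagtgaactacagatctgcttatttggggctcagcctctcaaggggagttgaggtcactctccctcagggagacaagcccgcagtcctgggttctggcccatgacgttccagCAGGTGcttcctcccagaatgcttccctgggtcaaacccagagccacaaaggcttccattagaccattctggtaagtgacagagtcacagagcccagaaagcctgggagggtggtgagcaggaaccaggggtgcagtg
Vpreb3 promoter, chr10:75948050-75948349, plus strand: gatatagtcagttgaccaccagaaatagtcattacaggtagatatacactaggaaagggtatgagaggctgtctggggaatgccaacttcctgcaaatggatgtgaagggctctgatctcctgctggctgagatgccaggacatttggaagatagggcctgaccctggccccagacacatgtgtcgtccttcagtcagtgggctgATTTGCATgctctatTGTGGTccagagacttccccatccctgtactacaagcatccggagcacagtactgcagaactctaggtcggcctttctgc
Cd79a promoter, chr7:24897247-24897546, plus strand: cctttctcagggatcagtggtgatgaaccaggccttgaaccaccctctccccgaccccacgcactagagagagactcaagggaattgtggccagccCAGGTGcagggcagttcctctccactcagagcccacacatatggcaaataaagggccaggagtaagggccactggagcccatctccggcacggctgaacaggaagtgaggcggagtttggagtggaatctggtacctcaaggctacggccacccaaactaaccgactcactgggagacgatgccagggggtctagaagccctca
Blnk promoter, chr19:40994172-40994471, minus strand: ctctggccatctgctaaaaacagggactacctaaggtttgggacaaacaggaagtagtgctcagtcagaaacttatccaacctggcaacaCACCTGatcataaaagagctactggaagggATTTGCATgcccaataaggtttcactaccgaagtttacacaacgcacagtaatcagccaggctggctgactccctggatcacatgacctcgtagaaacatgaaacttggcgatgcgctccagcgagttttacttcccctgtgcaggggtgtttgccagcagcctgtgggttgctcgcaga
Syk promoter, chr13:52583187-52583486, plus strand: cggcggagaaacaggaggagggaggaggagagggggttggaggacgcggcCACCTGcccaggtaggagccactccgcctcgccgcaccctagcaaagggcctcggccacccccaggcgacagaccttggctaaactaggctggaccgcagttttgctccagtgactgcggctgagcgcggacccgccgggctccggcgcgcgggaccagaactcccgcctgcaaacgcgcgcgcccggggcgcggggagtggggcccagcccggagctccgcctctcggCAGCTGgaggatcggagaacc
The Igll1 window held CCCNNGGG at -231, CAGCTG at -158, TGTGGT at -123 and CAGGTG at -8, counted from the start to the first base of the match. Vpreb3 and Blnk held the octamer, at -45 and -130, which 1.74% of all 32851 RefSeq promoter windows hold. CAGGTG was found in the windows of Igll1, Vpreb1, Cd79a and Blnk and also in that of Syk, and in 20.2% of all windows. The shares of all windows were 13.7% for CCCNNGGG, 16.3% for CAGCTG and 16.8% for TGTGGT. A match describes the letters of the window and is no measurement of binding.

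The surrogate light chain genes were high in all 6 PIR- libraries and at or near 0 in all 6 PIR+ libraries, in both genotypes. Igll1, the invariant part of the surrogate light chain, was listed at 0 in all 3 PIR+ KO libraries, against 185.9, 218.5 and 277.0 in PIR- KO libraries. In wild type it had 1.9, 0.0 and 0.7 in PIR+ libraries and 233.2, 308.3 and 264.6 in PIR- libraries. The subsets did not overlap in either genotype: the lowest PIR- library was the first KO library, and the highest PIR+ library the first wild-type library. In wild type the log2 fold change, on log2(value + 1), was -7.30 ± 0.28 (SE), with a limma adjusted p of 1.14e-43. In KO, where the PIR+ group is listed at 0 and no fold is given, the limma adjusted p was 2.52e-46. These values include every molecule in a tube, so fewer B-lineage cells and less message per cell cannot be told apart, here and in the other comparisons.

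Vpreb1, the variable-like part that pairs with the Igll1 product, was listed at 0 in all 3 PIR+ KO libraries, against 73.6, 79.6 and 103.6 in PIR- KO libraries. Wild type had 0.0, 0.0 and 0.7 in PIR+ libraries and 92.5, 135.2 and 115.2 in PIR- libraries. As for Igll1, the subsets were far apart, and a single PIR+ library had any Vpreb1. The wild-type log2 fold change was -6.58 ± 0.32 (limma adjusted p 6.54e-35), and the KO adjusted p was 3.51e-34. Its copy Vpreb2 was listed at 0 in all 6 PIR+ libraries, against 5.3, 11.0 and 8.1 in PIR- KO and 8.7, 7.4 and 6.6 in PIR- wild-type libraries. Vpreb2 was outside the main test. In a fit without the filter its adjusted p was 2.48e-05 in KO and 1.87e-05 in wild type.

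Vpreb3, a relative of the VpreB chains that associates with immunoglobulin chains inside the cell, had 1.2, 0.0 and 0.0 in PIR+ KO libraries, against 96.4, 95.1 and 130.0 in PIR- KO libraries. Wild-type values were 4.4, 0.7 and 1.4 in PIR+ libraries and 108.1, 155.7 and 123.4 in PIR- libraries. The subsets did not overlap, and the first PIR+ wild-type library was again the highest of the PIR+ ones. The log2 fold changes were -6.36 ± 0.30 in KO (limma adjusted p 1.54e-35) and -5.52 ± 0.30 in wild type (adjusted p 7.12e-31).

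**Figure D1:**
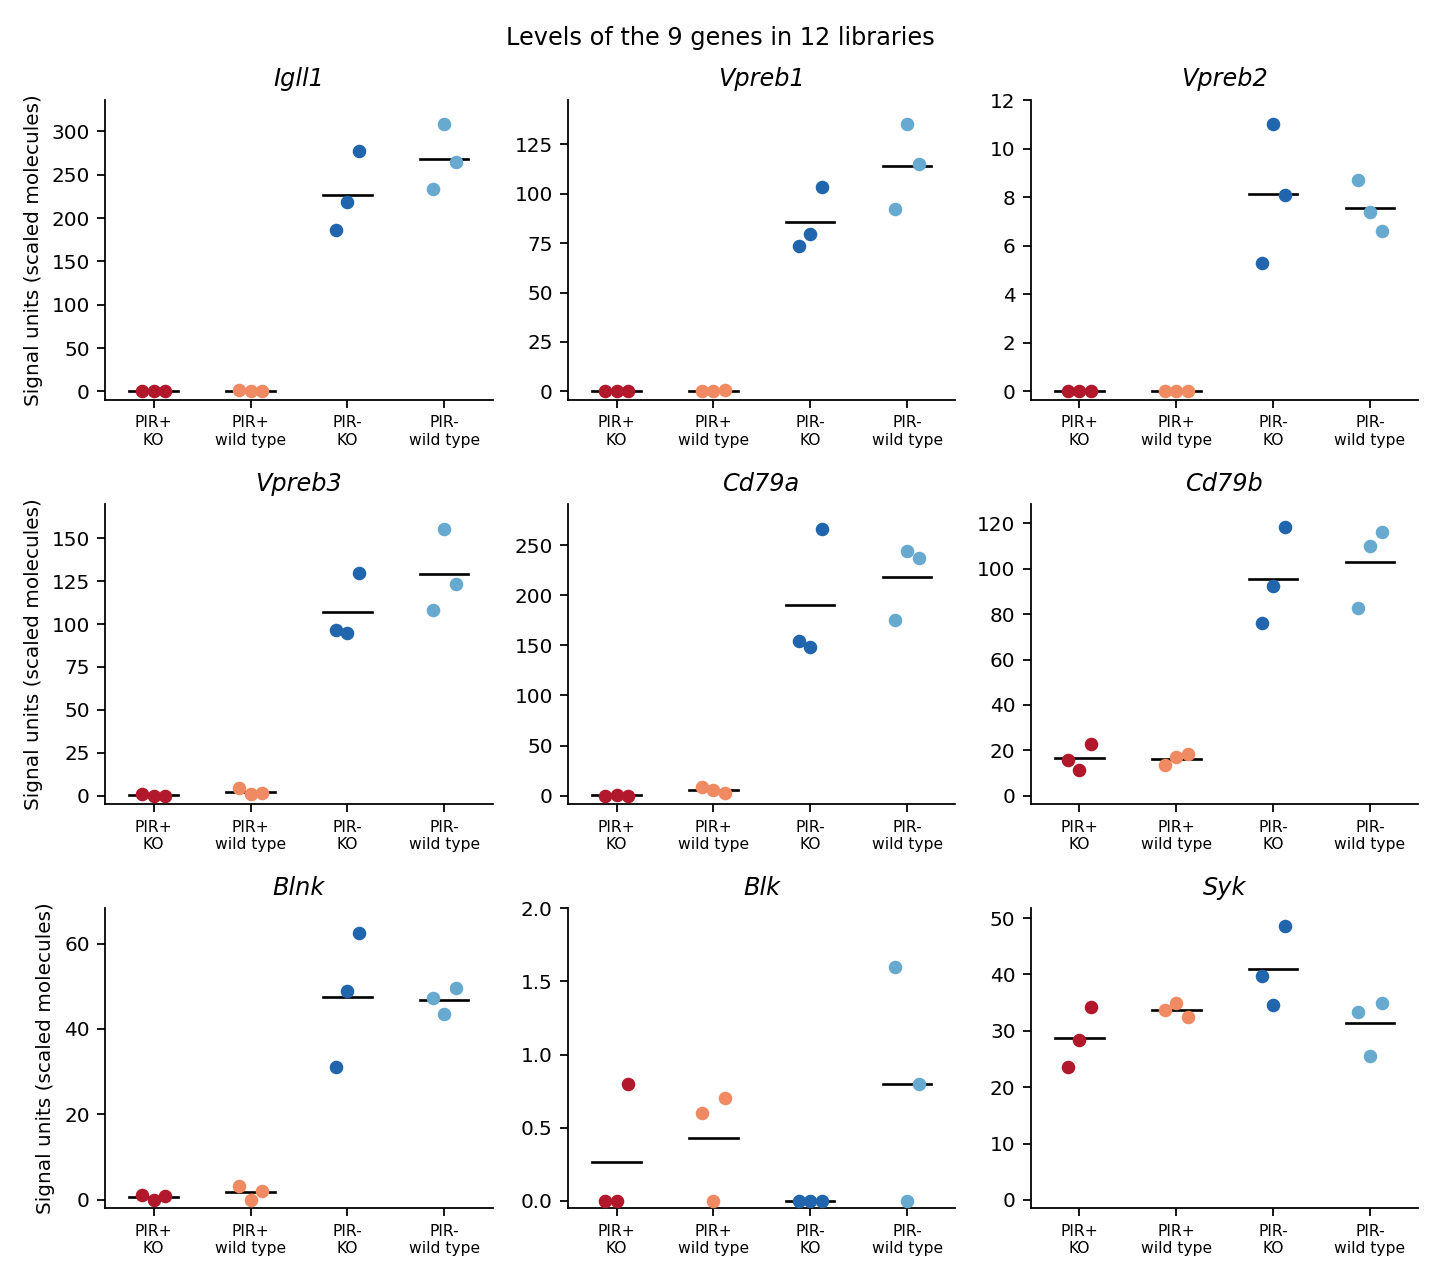
Signal units of each of the 9 genes (vertical axis, its own scale in each panel) in the 12 libraries, by group, with a point for each library and a bar for the group mean. Igll1, Vpreb1, Vpreb2, Vpreb3, Cd79a, Cd79b and Blnk stand higher in every PIR- library than in any PIR+ library, Syk lies between 23.6 and 48.5 in all 12, and Blk does not pass 1.6.

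The signalling chains were also lower in PIR+ libraries, but Cd79b kept a level there that Cd79a did not. Cd79a had 0.0, 1.0 and 0.0 in PIR+ KO libraries, against 154.1, 148.8 and 266.7 in PIR- KO libraries. In wild type it had 8.9, 5.9 and 2.7 in PIR+ libraries and 174.9, 244.0 and 237.4 in PIR- libraries. The subsets did not overlap, and within PIR+ every wild-type library was above every KO library. The log2 fold changes were -7.19 ± 0.27 in KO (limma adjusted p 1.62e-44) and -5.10 ± 0.27 in wild type (adjusted p 3.29e-32).

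Cd79b, the partner chain of Cd79a, had 15.8, 11.3 and 22.8 in PIR+ KO libraries, against 76.3, 92.3 and 118.3 in PIR- KO libraries. Wild-type values were 13.3, 17.1 and 18.3 in PIR+ libraries and 82.7, 110.0 and 116.4 in PIR- libraries. It was present in all 12 libraries, and no PIR+ library reached the lowest PIR- one. Its log2 fold changes were -2.48 ± 0.22 in KO (limma adjusted p 6.38e-17) and -2.59 ± 0.22 in wild type (95% interval -3.03 to -2.15, adjusted p 3.59e-18).

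The adaptor and the kinases did not move as 1 group. Blnk, the adaptor that links Syk to downstream enzymes, had 1.2, 0.0 and 0.8 in PIR+ KO libraries, against 31.2, 49.0 and 62.5 in PIR- KO libraries. Among wild-type libraries it had 3.2, 0.0 and 2.0 in PIR+ libraries and 47.2, 43.4 and 49.7 in PIR- libraries. The subsets did not overlap, and the 3 PIR- KO libraries spread more widely than the 3 PIR- wild-type libraries, with an SD of 15.7 against 3.17. Its log2 fold changes were -4.89 ± 0.36 in KO (limma adjusted p 2.97e-22) and -4.36 ± 0.36 in wild type (adjusted p 2.28e-19).

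Syk, the kinase that binds the phosphorylated tails of Cd79a and Cd79b and is also used by other haematopoietic cells, was present in every library at similar levels. It had 23.6, 28.4 and 34.2 in PIR+ KO libraries, against 39.7, 34.6 and 48.5 in PIR- KO libraries. In wild type it had 33.6, 34.9 and 32.5 in PIR+ libraries and 33.4, 25.6 and 34.9 in PIR- libraries. The subsets overlapped in wild type and stood just apart in KO, where the highest PIR+ library had 34.2 and the lowest PIR- library 34.6. The log2 fold change was -0.50 ± 0.22 in KO (95% interval -0.94 to -0.05, limma adjusted p 0.0855) and 0.11 ± 0.22 in wild type (95% interval -0.33 to 0.56, adjusted p 0.679).

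The Syk result depends on how library totals are treated. On the deposited scale the median tested gene was higher in PIR+ libraries, by 0.39 in KO and 0.51 in wild type on the log2 scale. After median-of-ratios scaling, which sets that median near 0, the Syk fold change was -0.89 in KO (adjusted p 0.000206) and -0.39 in wild type (adjusted p 0.0923), so the wild-type direction turned and the KO difference passed the threshold. Igll1, Vpreb1, Vpreb3, Cd79a, Cd79b and Blnk were called lower in PIR+ in both genotypes under all 20 alternatives. Blk, a Src-family kinase of B-lineage cells, was at the limit of detection, with 0.0, 0.0 and 0.8 in PIR+ KO libraries, 0.6, 0.0 and 0.7 in PIR+ wild type, 0 in all 3 of PIR- KO, and 1.6, 0.0 and 0.8 in PIR- wild type. Its highest value, 1.6, is an estimated 3 molecules.

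Of the 7 genes tested, 6 were called lower in PIR+ in KO, where 25.5% of all tested genes were called, 2.97% lower and 22.5% higher. The same 6 were called lower in wild type, where 44.4% of all tested genes were called, 3.72% lower and 40.6% higher. Igll1, Vpreb1, Vpreb3, Cd79a, Cd79b and Blnk were also lower without overlap in both genotypes, as were 3.43% of tested genes in KO, where Syk was too, and 4.36% in wild type. Of these 6, Igll1, Vpreb1, Vpreb3, Cd79a and Blnk reached the level for testing through the PIR- libraries alone, so the count over tested genes carries no weight of its own. The authors' deposited table gives a p for PIR+ against PIR- in wild type of 3.69e-63 for Igll1, 1.8e-67 for Cd79a, 3.68e-34 for Cd79b and 0.143 for Syk, and leaves unsaid whether they are adjusted.

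**Figure D2:**
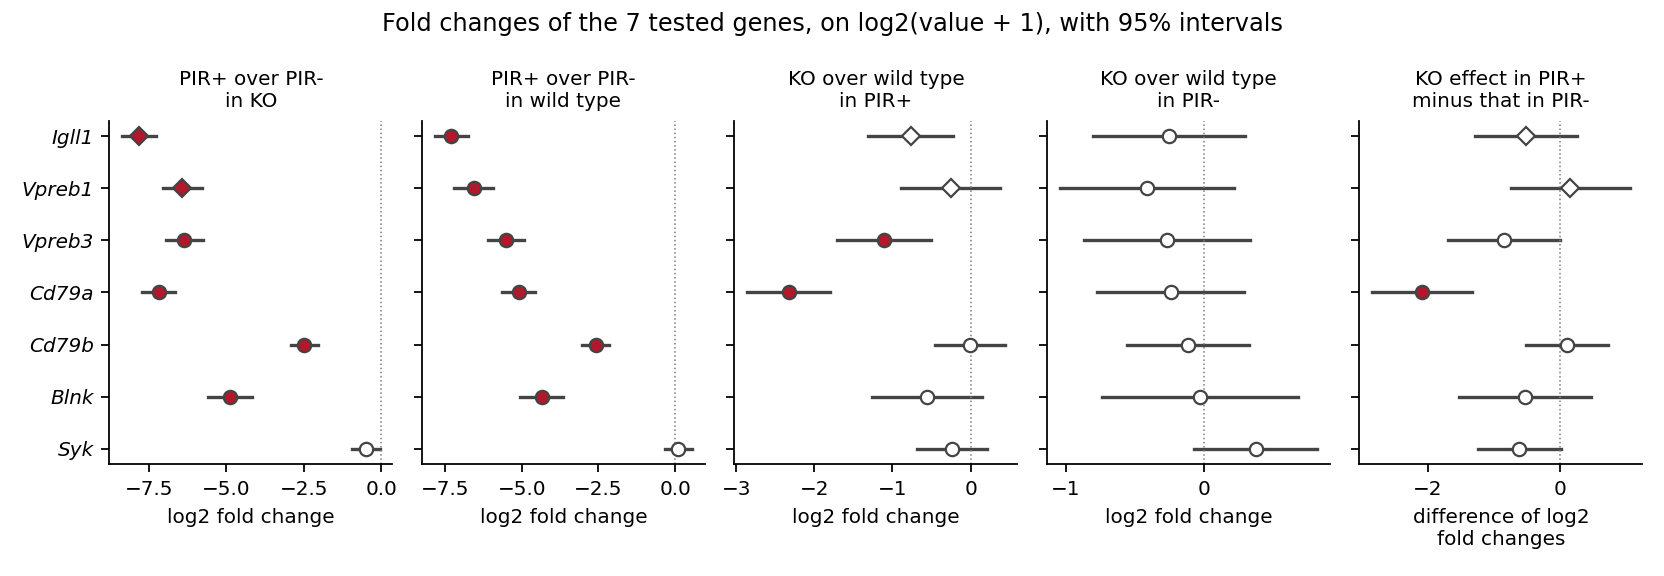
Log2 fold change of log2(value + 1) (horizontal axis) of the 7 tested genes in the 5 comparisons, with 95% intervals from limma. Filled points passed an adjusted p of 0.05, and diamonds mark fits in which a group is listed at 0, whose position depends on the added 1. In both PIR comparisons 6 genes lie well below 0 and Syk near it, and in the KO comparisons Cd79a in PIR+ cells lies farthest from 0.

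The 9 genes summed to 0.0176% to 0.0206% of the library total in PIR+ KO, 0.0233% to 0.0324% in PIR+ wild type, 0.388% to 0.456% in PIR- KO and 0.503% to 0.638% in PIR- wild type libraries. Within the 6 PIR- libraries the ratio to Igll1 was 0.364 to 0.439 for Vpreb1, 0.435 to 0.519 for Vpreb3, 0.355 to 0.440 for Cd79b, 0.681 to 0.963 for Cd79a and 0.141 to 0.226 for Blnk. It varied most for Vpreb2, the gene of lowest value among them, at 0.024 to 0.0503. Across all 12 libraries, Pearson r of log2(value + 1) was 0.929 to 0.994 over the 15 pairs of Igll1, Vpreb1, Vpreb3, Cd79a, Cd79b and Blnk. Syk had r of 0.361 to 0.454 with these 6 genes. These correlations describe 12 libraries that fall into 2 subsets, and the genes of a library share its depth and scaling.

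Among the 5 other tested genes whose pattern was most like that of Igll1, by Pearson r over the 12 libraries, were Cd24a (0.989), Cecr2 (0.988), Cplx2 (0.988) and Chchd10 (0.983). Cd24a, a surface protein of immature B cells and other progenitors, averaged 19.7 ± 2.25 in PIR+ KO and 21.6 ± 5.47 in PIR+ wild type, against 271.3 ± 43.8 in PIR- KO and 205.0 ± 39.8 in PIR- wild type (SD, n = 3 each). The genes most like Syk were 5830417I10Rik (0.865), Mrps25 (0.828), Rere (0.759), Eif2b2 (0.747) and Bub1b (0.741).

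Markers of other cells differed between the subsets too. Summed myeloid markers were 82.6 to 144.3 in PIR+ KO, 91.2 to 123.3 in PIR+ wild type, 26.7 to 55.5 in PIR- KO and 7.1 to 22.9 in PIR- wild type, with Ctsg and S100a9 listed at 0 in all 4 groups. Summed stem and multipotent markers were 264.7 to 327.8 in PIR+ KO, 216.4 to 267.8 in PIR+ wild type, 54.1 to 63.2 in PIR- KO and 10.8 to 25.5 in PIR- wild type. Of the 12 listed B-lineage markers 11 were in the table. These summed to 47.9 to 66.1 in PIR+ KO and 38.8 to 80.0 in PIR+ wild type. In PIR- KO they summed to 451.7 to 646.5, and in PIR- wild type to 400.8 to 540.0. Pax5 was near the floor in both subsets, at 0 in all 6 PIR+ libraries and at most 1.1 in PIR- libraries. Dntt was listed at 0 in all 4 groups. The erythroid gene Hba-a1 passed 300 in 5 libraries spread over the 4 groups, and the call of each of the 6 genes held without them. The part of these cells in the PIR comparison was not tested.

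Within PIR+ cells, KO libraries had less Cd79a than wild-type libraries, at levels far under those of PIR- cells. The 3 KO libraries had 0.0, 1.0 and 0.0, against 8.9, 5.9 and 2.7 in wild type, which are an estimated 0, 2 and 0 molecules in KO and 14, 9 and 4 in wild type. The groups did not overlap, as for 3.04% of tested genes in this direction. Cd79a reached the level for testing through PIR- libraries alone, so that share is no like background. The log2 fold change was -2.33 ± 0.27 (limma adjusted p 1.61e-10), and the adjusted p stayed between 6.58e-17 and 0.000604 under all 20 alternatives. The lowest came from the libraries with matching labels, which hold 1 PIR+ KO library. The authors' deposited table gives p = 0.000814 for KO against wild type.

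Vpreb3 was the other gene called, with 1.2, 0.0 and 0.0 in PIR+ KO and 4.4, 0.7 and 1.4 in PIR+ wild-type libraries. The groups overlapped, since the second wild-type library was below the first KO library, and the log2 fold change of -1.11 ± 0.30 (limma adjusted p 0.0467) was lost in 11 of 20 alternatives, over which the adjusted p ran from 0.0014 to 0.911. It was 0.911 without the first PIR+ wild-type library, 0.255 and 0.332 without the second and the third PIR+ KO library, 0.0567 without the first PIR- wild-type library, and 0.0747 to 0.0906 without 1 of the PIR- KO libraries. The authors' deposited table gives p = 0.111. Igll1, listed at 0 in PIR+ KO and at 1.9, 0.0 and 0.7 in PIR+ wild type, had an adjusted p of 0.297, which was 0.0177 without the second PIR+ wild-type library and 0.0117 with 0.1 added in place of 1.

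The other tested genes did not pass the threshold in PIR+ cells. The KO over wild type log2 fold change was -0.01 for Cd79b (95% interval -0.45 to 0.44, limma adjusted p 0.999), -0.56 ± 0.36 for Blnk (adjusted p 0.899) and -0.24 ± 0.22 for Syk (adjusted p 0.948). Vpreb1 had a value in 1 PIR+ library only, 0.7 in wild type (adjusted p 0.966). In all, 2 of the 7 tested genes were called lower in KO, where 0.903% of all tested genes were called, 0.462% lower. Cd79a and Vpreb3 reached the level for testing through PIR- libraries alone. Genes as low in PIR+ cells but not high in PIR- cells were left untested, so this count and these shares carry no weight of their own.

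The PIR+ wild-type library with the most Cd79a also had the most Igll1, Vpreb3, Blnk and Ebf1. This first library had 1.9 of Igll1, 4.4 of Vpreb3 and 3.2 of Blnk, the highest of the 6 PIR+ libraries in each case. The early B-lineage factor Ebf1 had 1.2, 0.5 and 0.8 in PIR+ KO libraries, against 3.8, 1.3 and 0.7 in PIR+ wild type. Pou2af1, Rag1 and Cd24a were also highest in the first wild-type library, though their KO and wild-type ranges overlapped, and Rag2 was not. The co-activator gene Pou2af1 had 0.0, 2.4 and 0.8 in PIR+ KO libraries, against 3.2, 0.0 and 0.7 in PIR+ wild type. Cd24a had 20.6, 17.1 and 21.3 in PIR+ KO libraries, against 27.3, 16.4 and 21.0 in PIR+ wild type. The recombinase gene Rag1 had 26.7, 14.2 and 13.7 in PIR+ KO libraries, against 27.3, 9.9 and 21.7 in PIR+ wild type. Its partner Rag2 had 17.6, 13.7 and 22.1 in PIR+ KO libraries, all above the 12.1, 10.5 and 11.5 in PIR+ wild type. The other 2 wild-type libraries still had more Cd79a than any KO library. Without the first wild-type library Cd79a stayed called. By labelled day, Cd79a had 0.0 in the KO library and 8.9 and 5.9 in the wild-type libraries of E12.5, and 0.0 and 1.0 in KO and 2.7 in wild type at E14.5. With labelled day in the model the fold change was -2.27 ± 0.27 (adjusted p 4.06e-12).

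The summed markers of T, NK and innate lymphoid cells were also lower in PIR+ KO, mainly through Id2 and Cd7. Their sum was 18.2 to 34.2 in PIR+ KO, against 64.7 to 100.6 in PIR+ wild type, while it was 0.5 to 2.2 in PIR- KO and 0.5 to 2.4 in PIR- wild type. Id2 averaged 20.1 in PIR+ KO and 54.2 in PIR+ wild type, and Cd7 averaged 0.17 and 18.5. No other listed gene averaged above 3.27, the Gata3 mean in PIR+ wild type, and Zbtb16 and Klrb1c were slightly higher in PIR+ KO. Of the 10 listed genes, 6 were above 0 in each PIR+ group, and Cd3e and Cd3d were listed at 0 in all 12 libraries. Their part in the Cd79a difference was not tested.

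**Figure D3:**
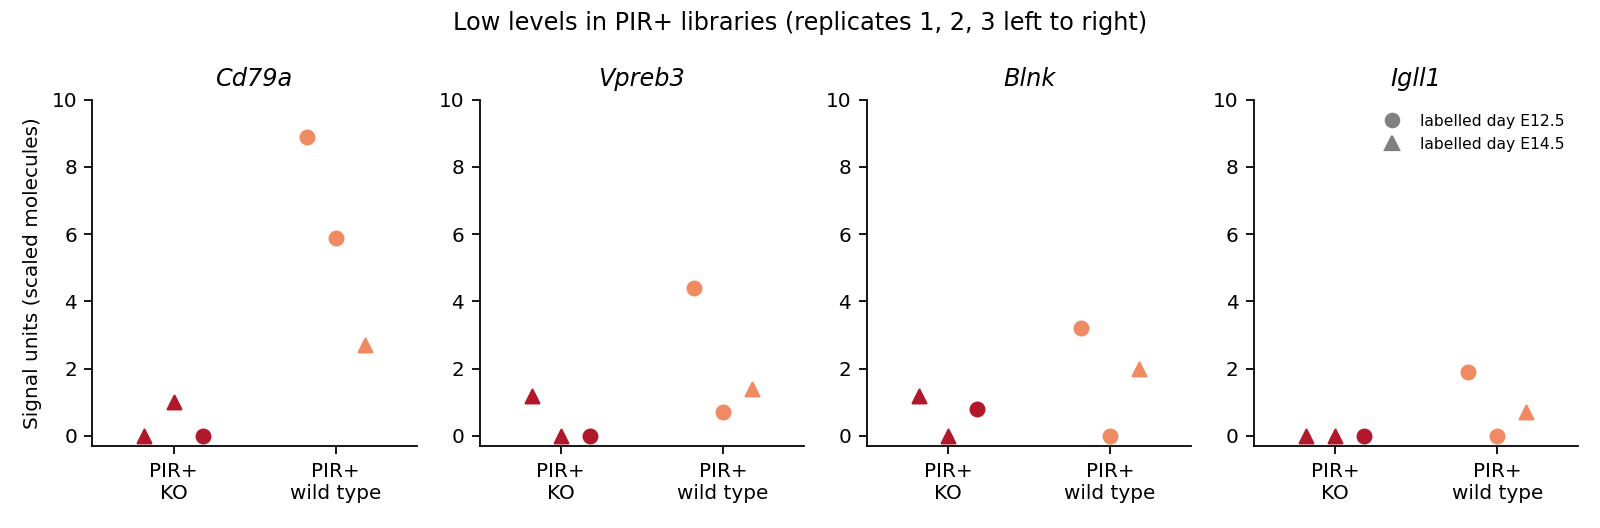
Signal units in the 6 PIR+ libraries (vertical axis) of Cd79a, Vpreb3, Blnk and Igll1, with KO left of wild type and a point for each library, whose shape gives the labelled day (circle E12.5, triangle E14.5). Cd79a stands at 2.7 to 8.9 in the 3 wild-type libraries and at 0.0 to 1.0 in the 3 KO libraries.

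Within PIR- cells, where the receptor genes were abundant, no member of the set passed the threshold between KO and wild type. None of the 7 tested genes was called by limma, where 1.3% of all tested genes were called. By unadjusted limma p, 0 of 7 were under 0.05, a share not compared with that of all tested genes. The log2 fold changes of KO over wild type were -0.25 for Igll1 (95% interval -0.80 to 0.30, adjusted p 0.724), -0.41 for Vpreb1 (-1.04 to 0.22, adjusted p 0.574) and -0.24 for Cd79a (adjusted p 0.727). Those of Vpreb3, Cd79b and Blnk were -0.26, -0.11 and -0.03, with adjusted p of 0.737, 0.859 and 0.984. Syk was 40.9 ± 7.03 in PIR- KO and 31.3 ± 4.99 in PIR- wild type (SD, n = 3 each), a log2 fold change of 0.38 (95% interval -0.07 to 0.82, limma adjusted p 0.442). The directions of Igll1, Vpreb3, Cd79a, Cd79b and Blnk turned in the libraries without abundant globin, which hold 1 library of PIR- wild type. Over the 20 alternatives the fold change of Igll1 ran from -0.46 to 0.077 and that of Vpreb1 from -0.62 to -0.026. On the deposited scale the median tested gene was 0.20 higher in PIR- KO. The 9 genes summed to 0.388% to 0.456% of the library total in PIR- KO and 0.503% to 0.638% in PIR- wild type.

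The KO effect on Cd79a differed between the subsets. The KO effect in PIR+ minus that in PIR- was -2.09 ± 0.38 on the log2 scale (limma adjusted p 0.000397), and 0.572% of all tested genes were called. Since Cd79a was tested through its PIR- libraries alone, that share is no like background. The adjusted p ran from 6.49e-09 to 0.469 over the alternatives: Cd79a was not called with 5 added in place of 1 (-0.75, adjusted p 0.469) or without the filter on low values (adjusted p 0.128), and was called in the other 18. The other 6 tested genes were not called, with -0.84 for Vpreb3 (adjusted p 0.885) and -0.61 for Syk (adjusted p 0.887). The comparisons of KO with wild type and of PIR+ with PIR- share libraries, so their results are not independent of each other.

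Among the other genes of the pathway, more were called higher than lower in PIR+ cells. Of 66 further genes of pre-B and B-cell receptor signalling, 65 were in the table and 25 were tested. In KO, 16 were called higher in PIR+ cells, 2 lower and 7 neither way, where 22.5% of all tested genes were called higher and 2.97% lower, with a median log2 fold change of 0.96 against 0.39 for all tested genes. In wild type, 15 were called higher, 2 lower and 8 neither way, where 40.6% of all tested genes were called higher and 3.72% lower, with a median of 0.95 against 0.51. After median-of-ratios scaling the split was 12 higher and 4 lower in KO, and 10 higher and 5 lower in wild type. Over all tested genes that scaling gave 369 higher and 341 lower in KO, and 524 higher and 501 lower in wild type. Sla, Dapp1 and Lcp2, among others, reached the level for testing through PIR+ libraries alone, and Prkcb through PIR- libraries alone. The counts and medians of pathway genes therefore carry no weight of their own.

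Prkcb, the protein kinase C of B-cell receptor signalling, was called lower in PIR+ cells, at -2.73 in KO and -2.09 in wild type. Prkcb averaged 3.2 ± 2.25 in PIR+ KO and 7.2 ± 3.40 in PIR+ wild type, against 23.5 ± 4.49 in PIR- KO and 31.5 ± 1.12 in PIR- wild type (SD, n = 3 each). The genes highest in PIR+ cells were Lcp2 (2.63), Dok2 (2.47), Sla (2.40) and Dapp1 (2.29) in KO, and Dok2 (3.67), Sla (2.52), Ptpn6 (2.37) and Dapp1 (2.19) in wild type. Sla encodes an adaptor that dampens antigen-receptor signalling, and Dapp1 an adaptor of B cells that binds membrane phosphoinositides. Lcp2, the homolog of Blnk that acts in T cells and myeloid cells, averaged 13.8 ± 3.02 in PIR+ KO and 4.60 ± 1.35 in PIR+ wild type, against 1.47 ± 0.874 in PIR- KO and 0.633 ± 0.569 in PIR- wild type. Its direction between the subsets was thus opposite to that of Blnk in both genotypes. The wild-type call of Lcp2 was lost in the 6 libraries whose labels match and without the globin-rich libraries.

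Ptpn6 and Dok2 were among the genes called higher in PIR+ cells. Other listed genes that restrain receptor signalling did not all follow: Csk, Cblb and Inpp5d were called in neither genotype in the main fit. After median-of-ratios scaling, Csk (-0.34) and Inpp5d (-0.78) were called lower in PIR+ cells of wild type. Cblb was called higher in PIR+ cells of KO without the second PIR+ KO or the second PIR- KO library. Ptpn6, the phosphatase recruited by inhibitory receptors such as the one encoded by Lilrb3, averaged 55.9 ± 12.9 in PIR+ KO and 65.6 ± 10.1 in PIR+ wild type, against 14.9 ± 3.96 in PIR- KO and 12.4 ± 5.43 in PIR- wild type (SD, n = 3 each). Dok2, an adaptor downstream of tyrosine kinases, averaged 58.5 ± 11.3 in PIR+ KO and 52.6 ± 5.31 in PIR+ wild type, against 9.67 ± 0.702 in PIR- KO and 3.23 ± 0.611 in PIR- wild type. Dok2 was the 1 of 25 pathway genes called between KO and wild type in PIR- cells (1.34 ± 0.26, limma adjusted p 0.000232). In that comparison 1.3% of all tested genes were called. In PIR+ cells none of the 25 was called by limma between KO and wild type, where 0.903% of all tested genes were called. An unadjusted limma p under 0.05 was found for 6 of the 25. That share was not compared with the share of all tested genes, so nothing is read from it.

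**Figure D4:**
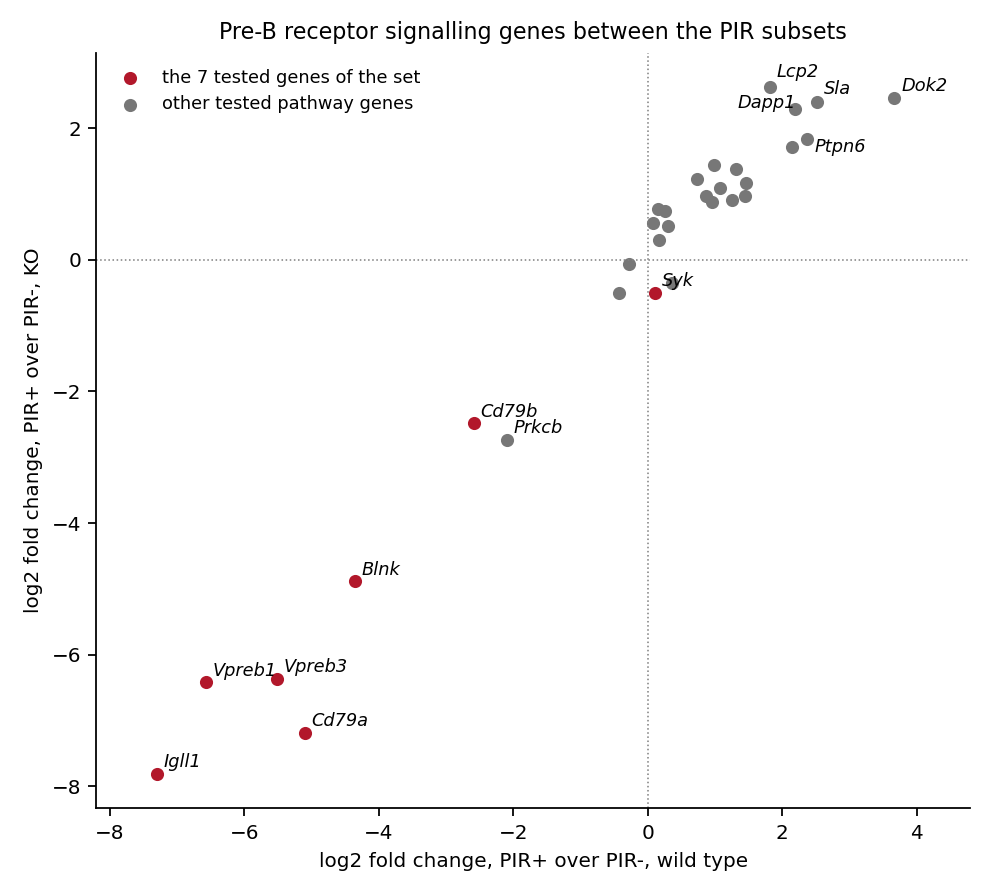
Log2 fold change of PIR+ over PIR- in KO (vertical axis) against the same in wild type (horizontal axis), with a point for each of the 7 tested genes of the set and for other tested pathway genes. Prkcb lies with the receptor genes at the lower left, Syk lies near the centre, and Dok2, Sla, Lcp2, Ptpn6 and Dapp1 lie at the upper right. The KO positions of Igll1 and Vpreb1 depend on the added 1, since their PIR+ KO group is listed at 0.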

How the data were processed

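RNA was measured in 12 libraries of 4 groups of 3, grouped by sample title, and the genes, lists and tests were chosen with earlier results of these data known. Reverse transcription used a molecular barcode, per the labels' protocols. The deposited signal values are read here, from the steps between them, as molecules that the authors scaled for each library by a factor that is not stated. TopHat2, mm10 and DESeq2 are named in the submitters' processing notes, with versions not given in the sources used here. Library sums ran from 155374 to 284648, and 93.0% to 94.2% of the values under 15 lie on a grid whose step, 0.490 to 0.775, was read as 1 molecule (within 0.055). On that reading a library held an estimated 208195 to 442533 molecules. Whole counts are not claimed, so no count test was run. The authors' deposited p-values, from DESeq2 per the file headers, are printed beside the fits only, and whether they are adjusted is not stated.

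The 4542 genes at 10 or more in 3 or more libraries were tested on log2(value + 1) with limma 3.58.1 (R 4.3.3, prior variance with a trend) over all 12 libraries and 4 group means. An adjusted p (Benjamini-Hochberg, over all tested genes) under 0.05 was called. The added 1 makes fold changes of low genes too small. The fit was also run on simulated data, with changes set in randomly drawn tested genes between KO and wild type in PIR+ cells only. That run was not aimed at genes near 0, such as Cd79a and Vpreb3 in PIR+ cells, and no result here rests on it. Named are all 9 genes of the set, up to 4 called pathway genes with the largest fold change per comparison and direction, and the 5 genes most correlated with Igll1 and with Syk. Alternatives were median-of-ratios scaling, 0.1 or 5 added in place of 1, no filter, a replicate block, labelled day as a covariate, the 6 libraries whose labels match, each library left out and, chosen after seeing the data, leaving out the 5 libraries with Hba-a1 over 300. The set without those 5 leaves 1 library of PIR- wild type, and the set with matching labels 1 of PIR- wild type and 1 of PIR+ KO. Such a lone library is assumed to vary like the other groups. The values of 1 gene named by this rule are not reported here. Promoter sequences are from RefSeq, transcripts from GENCODE M21, and figures were drawn with matplotlib 3.10.9.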

Additional observations from a re-analysis of the deposited data

Results flagged for a closer look

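The KO effect on Cd79a differed between the subsets by a test of the difference itself: KO over wild type was -2.33 in PIR+ cells and -0.24 in PIR- cells on log2(value + 1), a difference of -2.09 ± 0.38 (limma adjusted p 0.000397). The PIR+ side rests on an estimated 0, 2 and 0 molecules in the KO libraries and 14, 9 and 4 in the wild-type libraries.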

How the results depend on the processing

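The lower PIR+ values of Igll1, Vpreb1, Vpreb3, Cd79a, Cd79b and Blnk in both genotypes, and of Cd79a in KO within PIR+ cells, kept direction and call under all 20 alternatives. Some of these could not move a fold change: the replicate block, and leaving out a library outside the groups compared, altered only its error and adjusted p. The number of genes of the set called in PIR+ cells between KO and wild type was 2, and 1 after median-of-ratios scaling, with 5 added, without the filter or with the replicate block, where Vpreb3 was lost, and 3 with 0.1 added, where Igll1 was gained (1 to 3 with single libraries left out). For the difference of KO effects it was 1, and 0 with 5 added or without the filter. Pathway genes called in PIR+ cells between KO and wild type numbered 0, and 1 with 5 added (Lcp2) or without the filter (Lck), with 0 to 1 as single libraries were left out (Prkcb). These 3 were named after their values were seen. In wild type, 11 in place of 17 pathway genes were called between the subsets without the globin-rich libraries.

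Directions turned only for differences that were not called. Syk in wild type was -0.39 after scaling and -0.020 to 0.20 with single libraries left out. Cd79b between KO and wild type in PIR+ cells was 0.00011 with 5 added, 0.031 with labelled day, 0.57 in the libraries with matching labels, 0.089 without the globin-rich ones and -0.25 to 0.23 with single libraries left out. In PIR- cells, KO over wild type was 0.077 for Igll1, 0.040 for Vpreb3, 0.19 for Cd79a, 0.33 for Cd79b and 0.23 for Blnk both with matching labels and without globin-rich libraries, and with single libraries left out it was -0.28 to 0.036 for Cd79b and -0.25 to 0.24 for Blnk. The difference of KO effects was 0.029 for Igll1 with 5 added, -0.58 for Vpreb1 with 0.1 added, and for Cd79b -0.25 without globin-rich libraries and -0.14 to 0.34 with single libraries left out. The values of Igll1 and Vpreb1 in that difference depend on the constant added, since their PIR+ KO group is listed at 0. The cause of the other turns was not tested.

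Over all tested genes, calls between the subsets in KO numbered 1158, and 710 after scaling, 576 without globin-rich libraries, 662 without the third PIR+ KO library and 720 without the first PIR- KO library. In wild type they numbered 2015, and 1025 after scaling, 1053 with matching labels, 700 without globin-rich libraries and 1320 without the third PIR+ wild-type library. Between KO and wild type they numbered 41 in PIR+ cells (62 with the block, 27 without globin-rich libraries) and 59 in PIR- cells (209 with the block, 105 with matching labels, 31 without the filter, 35 without globin-rich libraries, and 37 and 33 without the second and the third PIR- KO library). For the difference of KO effects they numbered 26, and 3 without the filter, 10 with matching labels, 6 without globin-rich libraries and 15 without the second PIR+ wild-type library. The replicate numbers gave little sign of pairing: same-numbered libraries of different groups correlated at -0.10 to 0.16 in their deviations, with 1 of 12 correlations over 0.1. Calls between KO and wild type nevertheless rose with the replicate block, so pairing by number was not settled. With that block Syk passed in KO (adjusted p 0.0267). Depth limits Blk and Vpreb2 and the PIR+ values of Igll1, Vpreb1, Vpreb3, Cd79a and Blnk, which rest on at most 14 estimated molecules in a library.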
